A study of Papilio xuthus with 10 samples.

Results

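The early and the last larval instar of the swallowtail butterfly *Papilio xuthus* were compared gene by gene, the 3rd instar against the 5th, with the 4th instar between them left out of the comparison. Genes entered the comparison when their RPKM (reads per kilobase of gene, scaled to the reads of the library) was 1 or more in either library. This held for 11395 of the 15123 genes in the table, or 75.3%. The threshold cut through a continuous range of levels, and 137 genes had their higher value between 1 and 1.1 and 133 between 0.9 and 1. Of the 3728 genes left out, 802 had 0 reads in both libraries.

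The study profiled whole bodies of *P. xuthus* in 10 libraries, from the egg over 5 larval instars to pupae and adults of both sexes, with 1 library per stage. Both libraries compared here were made, per the methods of the study, from a single larva each, and larvae were fed on a plant of the citrus family. The labels give no strain and no treatment. Eggs and larvae of the 1st and 2nd instar were pooled, and each later library was 1 animal. The labels give no sex for the larvae and no day within the instar. With 1 animal per instar, stage, sex, day within the instar and individual cannot be told apart, and every difference below is a difference between 2 libraries without a replicate check. In whole bodies, fewer cells of a type and less RNA per cell cannot be told apart either.

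Caterpillars grow by moulting. At each moult a pulse of ecdysteroid hormone starts the making of a new cuticle, and juvenile hormone keeps the next stage a larva. In the last instar juvenile hormone falls away, the animal feeds and stores reserves in its fat body, and the tissues of the pupa and adult begin to grow. In this species the young instars look like bird droppings, and the last instar is green with false eyespots. Which of the genes below serve these processes is not known here, because the genes carry identifiers without names. For the same reason the labelled stages could not be checked against marker genes. The genes are therefore described by their levels, their other libraries, their length and the numbers in their identifiers.

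Depth was read back from the RPKM values. The 3rd instar library had a total of 28197950 reads and the 5th instar library 23378656, within a range of 23378656 to 35161755 over the 10 libraries. A 1 kb gene with 3 reads would have had an RPKM of 0.106 in the former and 0.128 in the latter. Reads summed over genes exceeded the total in both, at 136% in the 3rd and 142% in the 5th instar. This was also so in the 2nd and 4th instar (154% and 124%), whereas egg, 1st instar, pupae and adults had 76.5% to 98.6%. Summed RPKM was 2086931 in the 3rd and 1949935 in the 5th instar, against 851577 to 1190738 in those other stages. Levels set against other stages below were not rescaled for this. Intervals of RPKM and of ratios below cover counting error only, and treat reads as independent. Both ends were sequenced and some reads may have been counted more than once, so these intervals may be too narrow.

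The first question was how far the 2 instars used the same genes. Of the genes compared, 10004 (87.8%) were at an RPKM of 1 or more in both libraries, 628 in the 3rd instar only and 763 in the 5th instar only. Most of the genes on 1 side only were low. Their median RPKM was 1.78 in the 3rd instar and 1.88 in the 5th, and just 11 of the 628 and 43 of the 763 reached an RPKM of 10. The highest value among them was 81.5 in the 3rd and 805 in the 5th instar. Genes with 0 reads in the other library and an RPKM of 10 or more numbered 1 on the 3rd instar side and 5 on the 5th instar side. The 4th instar, which the comparison did not use, had an RPKM of 1 or more for 345 (54.9%) of the 3rd-only genes and for 507 (66.4%) of the 5th-only genes.

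Differences were taken as the 5th instar minus the 3rd in log2(RPKM + 1), a scale that understates the change of low genes. The median over the 11395 genes was -0.07, the middle of the distribution lay between -0.66 (25th percentile) and 0.53 (75th), and 8397 genes (73.7%) differed by less than 1. Genes that differed by 2 or more numbered 290 higher in the 5th instar (2.54%) and 192 lower (1.68%), in total 482 (4.23%). These are called changed below. Among all 45 pairs of libraries under the same rule, only the egg and 1st instar had a smaller share of changed genes, at 1 of 12216 (0.00819%). Those 2 libraries were thus nearly the same profile, and where they go together below they are not 2 separate observations. The steps between successive instars had larger shares than the 3rd against the 5th instar, although the 3rd and 5th lie farther apart. From the 2nd to the 3rd instar 7.94% of genes were changed (4.31% higher and 3.63% lower in the later instar). From the 3rd to the 4th it was 8.55% (4.01% and 4.53%), and from the 4th to the 5th 6.13% (4.64% and 1.49%). These steps share libraries with the comparison. Spearman's rank correlation of the 3rd and 5th instar across these genes, which are not independent replicates, was 0.84.

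The 2 directions differed in how far genes moved. At a difference of 1 or more (26.3% of genes) the lower side was the larger, with 1571 genes lower (13.8%) and 1427 higher (12.5%) in the 5th instar. At 3 or more the higher side held 118 genes (1.04%) and the lower side 30 (0.263%), and at 5 or more 37 and 4. The genes higher in the 5th instar had a median RPKM of 2.29 in the 3rd and 30.0 in the 5th instar. Those lower had 37.0 in the 3rd and 4.59 in the 5th. Each changed gene had at least 22 reads in its higher library, and the 95% counting interval of its ratio excluded 2-fold in all 290 and all 192. It excluded 4-fold in 257 of the higher and 147 of the lower genes. The same reads chose these genes, so the intervals are no separate check of the calls. That 2-fold was excluded largely follows from the threshold. The balance of directions moved with the scaling between libraries. With both libraries brought to the same upper quartile, the median difference shifted by 0.10 and 325 genes were higher and 154 lower. The higher genes then made up 67.8% of changed genes, against 60.2% before. Counts at a difference of 1 were not taken under other scalings.

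**Figure D1:**
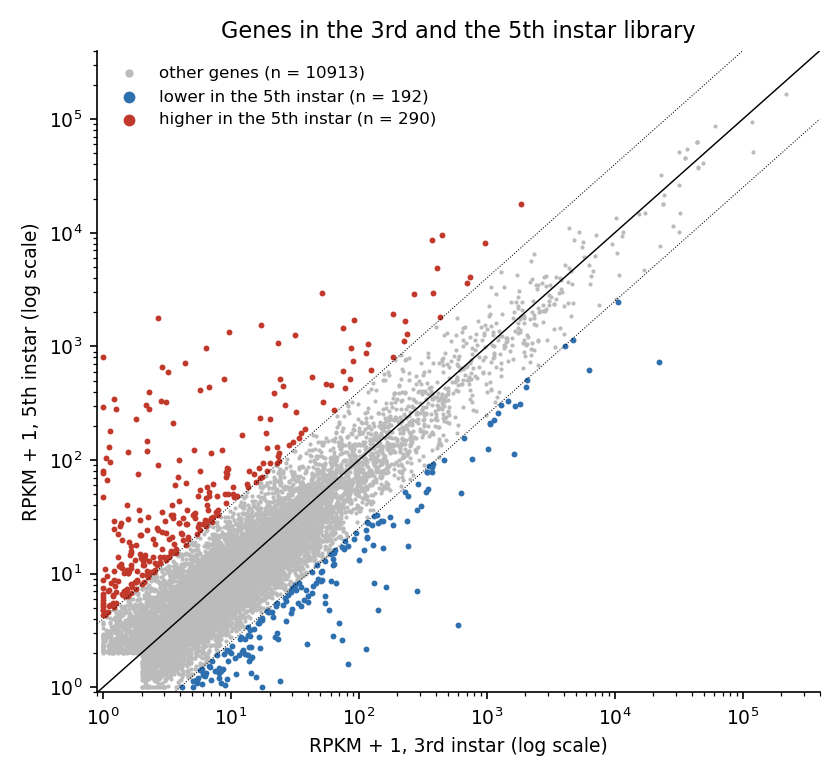
RPKM + 1 in the 3rd instar (x axis) against the 5th instar (y axis) for the 11395 genes, both on log scales, 1 point per gene. The solid line marks equal values and the dotted lines a difference of 2 in log2(RPKM + 1); 290 genes lie above the band, many of them near the bottom of the 3rd instar scale, and 192 below it.

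Among genes higher in the 5th instar, the largest difference was that of RR46_05835, a gene with a recovered length of 570 bp. It had 0 reads in the 3rd instar, an RPKM of 0.0597 (1 read) in the 4th and 805 (exact Poisson 95% interval 790 to 821) in the 5th. That is 4314-fold over the floor of 3 reads in the 3rd instar (an RPKM of 0.187). The lower 95% counting bound of the ratio, taken from 0 reads without the floor, is 3507-fold. Earlier libraries were intermediate, the egg having 22.4, the 1st instar 48.6 and the 2nd 32.5. Pupae had 6.36 (female) and 8.93 (male), and adults 1 read in the female and 0 in the male. This gene was thus read in the young larvae, at 0 or 1 read in the 3rd and 4th instar libraries and highest in the last instar.

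The next largest was RR46_02304 (378 bp), with an RPKM of 1.69 (1.00 to 2.67) in the 3rd instar, 0.540 in the 4th and 1790 (1762 to 1818) in the 5th. Its ratio was 1060-fold (670 to 1789). Here the egg and the young instars were low, between 5.84 and 6.96, whereas the pupae had 209 (female) and 247 (male) and the adults 48.0 and 225. The 2 genes differed most in the adults, where RR46_05835 had 1 read or 0.

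On the lower side the largest difference was that of RR46_06426 (681 bp), with an RPKM of 596 (585 to 607) in the 3rd instar, 7.44 in the 4th and 2.51 (1.79 to 3.42) in the 5th. It was 237-fold (174 to 332) higher in the 3rd than in the 5th instar. The values in the egg, 1st and 2nd instar were 74.5, 137 and 170, and none of the pupae and adults exceeded 0.293. Levels thus climbed to the 3rd instar library and were low in each library after it.

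RR46_02320 (396 bp) followed, with 113 (107 to 119) in the 3rd instar, 0.687 in the 4th and 1.19 (0.593 to 2.13) in the 5th, a 95.04-fold ratio (52.9 to 191). Its highest value lay earlier, at 423 in the 2nd instar, next to 419 for eggs and 319 for the 1st instar. Pupae and adults had at most 0.287. The 2 lower genes therefore shared low values from the 4th instar on, and differed in where their level was highest.

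Among changed genes, abundance was highest on the higher side in RR46_07911 (621 bp) and RR46_02658 (756 bp). RR46_07911 had an RPKM of 1861 (1841 to 1881) in the 3rd instar, 21.5 in the 4th, then 17860 (17791 to 17929) in the 5th, a 9.60-fold difference (9.49 to 9.71) with a drop between. The pupae still had 6389 (female) and 9466 (male), and the adults 37.3 and 3.45. RR46_02658 went from 443 (434 to 452) in the 3rd over 258 in the 4th to 9473 (9427 to 9518) in the 5th instar, 21.4-fold higher (21.0 to 21.8). It was lower in the pupae, at 133 and 44.4, so that it was more limited to the larva than RR46_07911.

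On the lower side the most abundant were RR46_06416 (564 bp) and RR46_01342 (843 bp). RR46_06416 had 22269 (22195 to 22342) in the 3rd instar, 134 in the 4th, then 728 (714 to 743) in the 5th, a 30.6-fold difference (30.0 to 31.2). Its 2nd instar value was higher still, at 29696. RR46_01342 went from 10688 (10646 to 10730) in the 3rd over 194 in the 4th to 2435 (2414 to 2457) in the 5th instar. Neither gene exceeded an RPKM of 1.02 in pupae or adults, and in both the 4th instar was the lowest larval library.

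Counting error is smaller where a gene has many reads. At 1000 or more reads summed over both libraries there were 3789 genes. Of these, 1877 (49.5%) were within 1.5-fold of each other, 139 were 4-fold or more higher in the 5th instar and 94 lower, and at 100-fold or more 23 were higher and 2 lower. The 1000 reads could come from 1 library alone, with a floor of 3 reads for the other. Large ratios in these counts need not rest on reads in both libraries. The largest ratios with 30 reads or more in both libraries were those of RR46_11755, 264-fold higher (206 to 344), and RR46_09342, 210-fold higher (154 to 296). RR46_11755 had 2.24 in the 3rd and 591 in the 5th instar and at most 1.65 in the other 8 libraries, so that it stood out in the last instar alone. RR46_09342 had 3.39 in the 3rd and 712 in the 5th instar, and was also high in the male pupa, at 622. On the lower side RR46_05651 was 134-fold lower (93.8 to 199), with 81.5 in the 3rd and 0.608 in the 5th instar, and RR46_06426, described above, had the largest ratio.

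The most abundant genes were largely the same in both instars. RR46_00605 was the most abundant gene in each, with 10.4% of summed RPKM in the 3rd and 8.51% in the 5th instar. The 10 most abundant genes held 37.6% of summed RPKM in the 3rd and 37.9% in the 5th, and the lists of 10 shared 7 genes (70% of each list). Of the 13 genes in either list, 6 belonged to groups of near-identical copies with nearly the same reads in each library. How reads with several hits were counted is not given, so the shares and the overlap may include the same reads more than once. None of the 13 was changed, and their differences lay between -1.21 and 0.71. The lists of 100 shared 76 genes, with 5 lower genes in the 3rd instar list and 10 higher genes in that of the 5th. In all, the 290 higher genes went from 0.484% of summed RPKM in the 3rd instar to 5.69% in the 5th, and the 192 lower genes from 3.83% to 0.589%. In the 4th instar these shares were 0.690% and 0.410%, both low.

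How often genes changed depended on their level. Between a mean RPKM of 100 and 1000, 6.95% of 734 genes were higher and 4.36% lower in the 5th instar. At 1000 and above the shares were 5.88% and 3.92% of 204 genes, and between 5 and 20 there were 102 higher and 59 lower among 4081 genes. Below a mean RPKM of 2 only 0.341% of 1762 genes were changed. There the pseudocount keeps most genes from reaching the threshold, and 28.9% of them were 2-fold or more higher and 24.5% 2-fold or more lower by ratio. By the same ratio the shares were 16.6% and 18.4% between 100 and 1000, and 11.8% and 17.2% at 1000 and above. The rise with level therefore held for the rule and not for 2-fold ratios.

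Changed genes were shorter than the rest. Recovered lengths, the smallest that give whole reads, had a median of 610.5 bp in the higher and 625.5 bp in the lower genes, against 1062 bp in all genes compared. Under 450 bp, 4.64% of 1963 genes were higher and 3.31% lower, and at 2000 bp and above 0.819% of 2319 genes were higher and 0.388% lower. The order was the same where the pair had at least 1000 reads per gene, with a median of 807 bp in 121 higher genes, 843 bp in 82 lower genes and 1479 bp in all 3789.

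**Figure D2:**
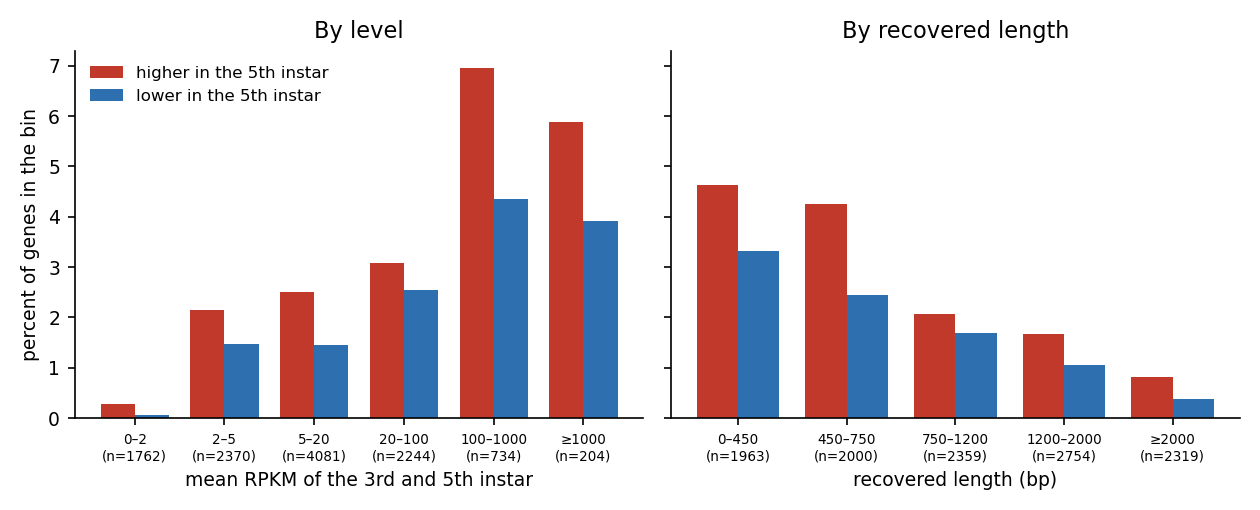
Percent of genes higher (red) and lower (blue) in the 5th than in the 3rd instar by 2 or more in log2(RPKM + 1), by mean RPKM of the 2 libraries (left) and by recovered length in bp (right), with the number of genes in each bin. Shares were largest between a mean RPKM of 100 and 1000, at 6.95% and 4.36%, and were smaller in longer genes, from 4.64% and 3.31% to 0.819% and 0.388%.

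The 4th instar library shows whether a change between the 3rd and 5th was passed through step by step. Its value lay between the other 2 in 242 of the 482 changed genes (50.2%, Wilson 95% interval 45.8 to 54.7%). That interval treats genes as independent draws, which they are not, and does not cover differences between animals. The share was 54.2% in the 2516 genes with a difference of 1 to 2. It was 32.1% over all genes compared, most of which differed by less than 1. Of the 290 genes higher in the 5th instar, 130 (44.8%) were between, 94 (32.4%) were lower in the 4th than in the 3rd instar and 66 (22.8%) were higher in the 4th than in the 5th. Of the 192 lower genes, 112 (58.3%) were between, 70 (36.5%) were still lower in the 4th instar than in the 5th and 10 (5.21%) were above the 3rd. The 4th instar was more than 2-fold below the lower of the 2 in 68 of the higher and 55 of the lower genes, and more than 2-fold above the higher of them in 28 and 3. Among the changed genes, departures from a stepwise course were therefore mostly towards low values in the 4th instar. These 2-fold counts were not made over all genes compared, so they cannot be read as a trait of the changed genes. The 4th instar library is also 1 animal, and its part in these counts was not tested.

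Single genes show both courses. RR46_00145 (843 bp) was nearest to an even course among the higher genes, with RPKM values of 1.30, 4.48 and 11.8 in successive instars from the 3rd on. RR46_12849 (348 bp) was so among the lower, with 13.1, 5.28 and 1.84. Farthest outside were RR46_05828 (489 bp), with RPKM values of 699, 0.556 and 3584 in the same order, and RR46_06420 (1119 bp), with 4687, 6.47 and 1138. In both the 4th instar library was far below its neighbours, with 8 and 213 reads, and they differed in which neighbour was higher.

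**Figure D3:**
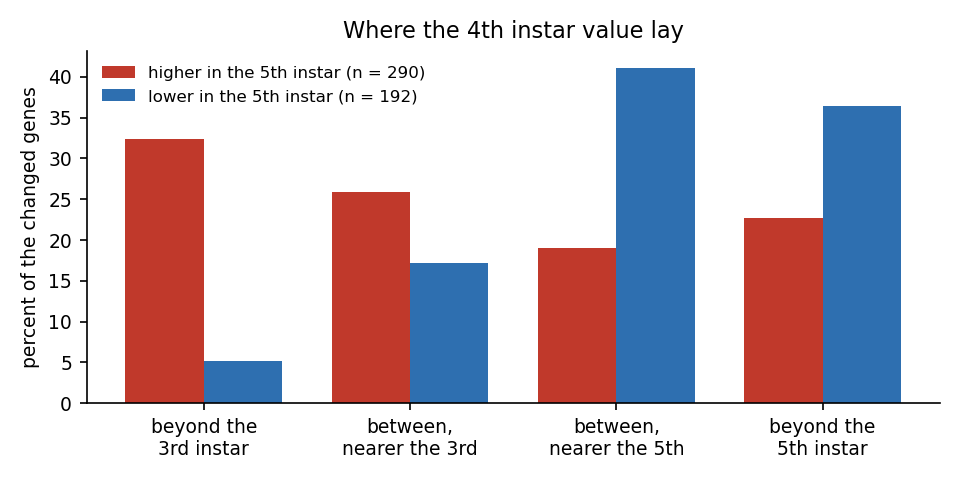
Percent of the 290 higher (red) and 192 lower (blue) genes by where the 4th instar value lay on the log2(RPKM + 1) scale relative to the 3rd and 5th instar. In the higher genes 32.4% lay beyond the 3rd instar, that is below it, and in the lower genes 36.5% lay beyond the 5th, again below it.

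The other libraries, which played no part in choosing the changed genes, place these genes in development. The genes higher in the 5th instar had a median RPKM of 15.3 in eggs and 17.1 in the 1st instar. It was 6.23 at the 2nd, 2.29 at the 3rd and 8.34 at the 4th. They were lower again in pupae, at 7.02 (female) and 6.28 (male), and in adults, at 1.39 (female) and 4.17 (male). The low value in the 3rd and the high value in the 5th follow from how the genes were chosen, and the median of all genes compared was also lower in the 2nd instar (5.83) than in eggs (15.4). The genes lower in the 5th instar had medians of 34.5 (egg), 30.6 (1st instar), 23.0 (2nd) and 5.88 (4th), and between 4.25 and 7.06 in pupae and adults. Over all genes compared the medians ranged from 5.83 in the 2nd instar to 15.4 in the egg.

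On the log2(RPKM + 1) scale, each other library was nearer to the 3rd or to the 5th instar for a given gene. For the higher genes, the 1st instar was nearer to the 5th in 176 of 290 (60.7%) and the egg in 157 (54.1%), whereas the 2nd instar was so in 114 (39.3%) and the female adult in 71 (24.5%). The 4th instar was nearer to the 5th in 149 of the 192 lower genes (77.6%), but in 121 of the 290 higher genes (41.7%). For the lower genes, the egg, 1st and 2nd instar were nearer to the 5th in 67, 63 and 58. The earlier libraries thus mostly went with the 3rd instar, and pupae and adults were about evenly split, with 96 to 111. Nearness was not counted over all genes compared, so these shares cannot be read as a trait of the changed genes.

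The highest value of a gene over all 10 libraries fell in the 2nd to 5th instar for 178 (61.4%) of the higher and 80 (41.7%) of the lower genes, against 22.9% of all genes compared. It fell in the 5th instar itself for 128 higher genes and in the 3rd for 45 lower genes, which in part follows from how they were chosen. Adults held the highest value for 12.1% of the higher and 24.0% of the lower genes, against 38.01% of all. Each gene has 1 highest library, so the larger share in the 2nd to 5th instar and the smaller share in adults also follow in part from the choice. In libraries that did not choose them, an RPKM of 1 or more was seen for 84.1% of the higher and 96.4% of the lower genes in eggs, against 94.8% of all. In the female adult it was seen for 54.1% and 66.1%, against 87.9% of all. Below 1 in all pupae and adults were 12.8% of the higher and 16.7% of the lower genes, against 3.55% of all.

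**Figure D4:**
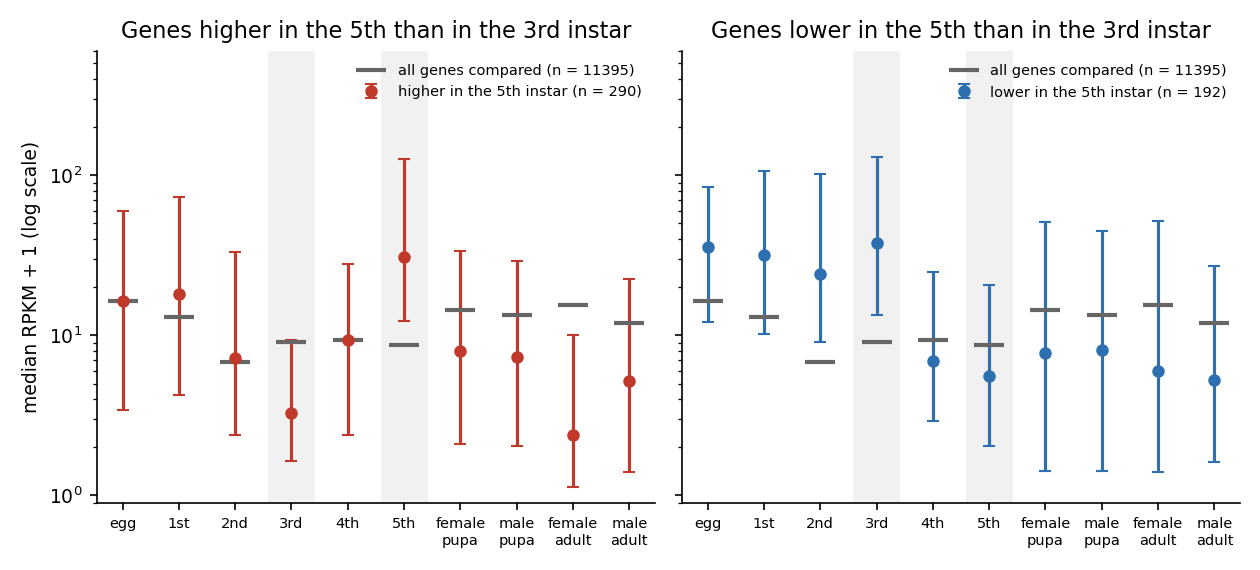
Median RPKM + 1 (points, log scale) with lower and upper quartiles over genes (bars) in each of the 10 libraries, for the 290 genes higher (left) and the 192 genes lower (right) in the 5th than in the 3rd instar; grey dashes mark the median of all 11395 genes, and shading the 2 libraries that chose the genes. The higher genes have medians of 17.1 in the 1st instar, 2.29 in the 3rd and 30.0 in the 5th, and the lower genes stay at 23.0 or more up to the 3rd instar and at 7.06 or less after it.

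Genes marked out by other stages were then read in the 2 instars. A gene was listed when its lowest value in the libraries of a list lay above its highest value in the rest of the 7 libraries of egg, 1st and 2nd instar, pupae and adults by 2 or more in log2(RPKM + 1). The egg and 1st instar marked 226 genes, of which 121 could be compared. Of these, 83 reached an RPKM of 1 in the 3rd and 112 in the 5th instar, so that more genes entered through the 5th alone than through the 3rd alone. The median difference of the 121 was 0.77, against -0.07 for all genes, and it was 0.24 with lists set at a gap of 1. In the 5th instar 25 (20.7%) were higher and 4 (3.31%) lower. Over all 226 genes, compared or not, the median RPKM was 0.493 in the 3rd and 0.908 in the 5th instar. Of the 161 genes marked by the 2nd instar, 130 were compared, with a median difference of -0.38 and 16 genes changed in each direction (12.3%). The median RPKM of the 161 was nevertheless higher in the 5th instar, at 29.7 against 21.2 in the 3rd. The shares over all genes were 2.54% higher and 1.68% lower.

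Both pupae marked 82 genes, of which 63 were compared. An RPKM of 1 was reached by 51 of them in the 3rd and by 60 in the 5th instar. Their median difference was 0.54, and 8 (12.7%) were higher and 6 (9.52%) lower in the 5th instar. Over all 82 genes the median RPKM was 2.87 in the 3rd and 4.86 in the 5th instar. Their summed RPKM was 3827 in the 3rd and 20367 in the 5th instar, but without RR46_07911 it was 1966 and 2507, so that 1 gene made most of that difference. Of the genes marked by both adults 54 were compared, with a median of 0.15 and 1 gene changed in each direction. Pupae and adults together marked 58 genes, of which 41 were compared, with a median of 0.12, 1 higher and 3 lower. Male pupa and male adult marked 365 genes, and 15 of these could be compared. None of the 15 was changed, and their median RPKM was 1.71 in the 3rd and 1.31 in the 5th instar. Over all 365 genes the median RPKM was 0 in both instars, and summed RPKM was 54.1 and 53.7. Female pupa and female adult together marked 0 genes.

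Many changed genes had neighbouring numbers in their identifiers. Of the 290 higher genes, 102 (35.2%) had another higher gene at the number just before or after their own, against 415 (3.64%) of all genes compared. Of the 192 lower genes, 38 (19.8%) had a lower neighbour, against 294 (2.58%) of all. A lower neighbour was found for 10 higher genes (3.45%, against 2.58% of all), and a higher neighbour for 10 lower genes (5.21%, against 3.64% of all). The sources used here do not say whether the numbers follow the order of genes on the chromosomes. Near-identical copies, genes of the same recovered length and nearly the same reads in each library, played little part, since just 1 changed gene belonged to such a group.

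Runs of at least 3 changed genes with numbers no more than 2 apart numbered 15 on the higher side, with 73 genes (25.2% of the higher genes), and 2 on the lower side, with 8 genes (4.17%). The runs named here were chosen after their values were seen. The longest, RR46_05828 to RR46_05838, held 11 genes, of which 10 were higher in the 5th instar and the remaining 1 differed by less than 2. Recovered lengths of the 10 were 339 to 708 bp. Their median RPKM was 15.1 in the 3rd instar (0 to 699), 0.429 in the 4th (0 to 72.4) and 1179 in the 5th (27.8 to 3584). Each of the 10 had a lower value in the 4th than in the 5th instar, and 7 of them a lower value in the 4th than in the 3rd. Medians of the 10 were 141 in the 1st and 200 in the 2nd instar, although RR46_05837 was below an RPKM of 1 in eggs and in both of these instars, while the adults had 0.119 (female) and 0.505 (male). RR46_05833 had its highest values in the pupae, at 296 (female) and 451 (male).

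The second run, RR46_09338 to RR46_09347, held 9 higher genes among 10, and the other was below an RPKM of 1 in both instars. Medians were 2.08, 0.532 and 321 for the 3rd, 4th and 5th instar. Eggs had 45.9, the earlier instars 107 and 85.6, and the female adult 0. A further 7 higher genes made up RR46_09319 to RR46_09327, close in number, with medians of 4.69, 101 and 328 in the 3rd, 4th and 5th instar. It differed from the runs just described in the 4th instar, where just 1 of its 7 genes was lower than in the 3rd. Over 25 successive numbers from RR46_09321 on there were 24 genes, of which 21 were compared, with 16 higher in the 5th instar and 0 lower. This window starts at a higher gene and takes in genes of both runs of this paragraph. Its place was set by the calls, and it is no separate finding.

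Runs on the lower side were shorter. RR46_01341 to RR46_01346 held 5 lower genes of 6, with a median of 1055 in the 3rd (53.4 to 10688), 106 in the 4th and 207 in the 5th instar (4.53 to 2435). In pupae and adults none of the 5 exceeded 1.02. Earlier medians were 531 in the 1st and 14.1 in the 2nd instar, but the 5 genes did not share this course. From the 1st to the 2nd instar RR46_01341 rose from 640 to 1515 and RR46_01342 from 3094 to 9427. RR46_01344 fell from 68.2 to 14.1, RR46_01345 from 219 to 1.69 and RR46_01346 from 531 to 6.70. RR46_04095 to RR46_04097 held 3 lower genes, with medians of 23.2, 2.66 and 0.281. The pupae had high values again, with medians of 161 (female) and 315 (male). Their course from the 3rd to the 5th instar was stepwise in the medians, unlike that of the first of these runs.

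**Figure D5:**
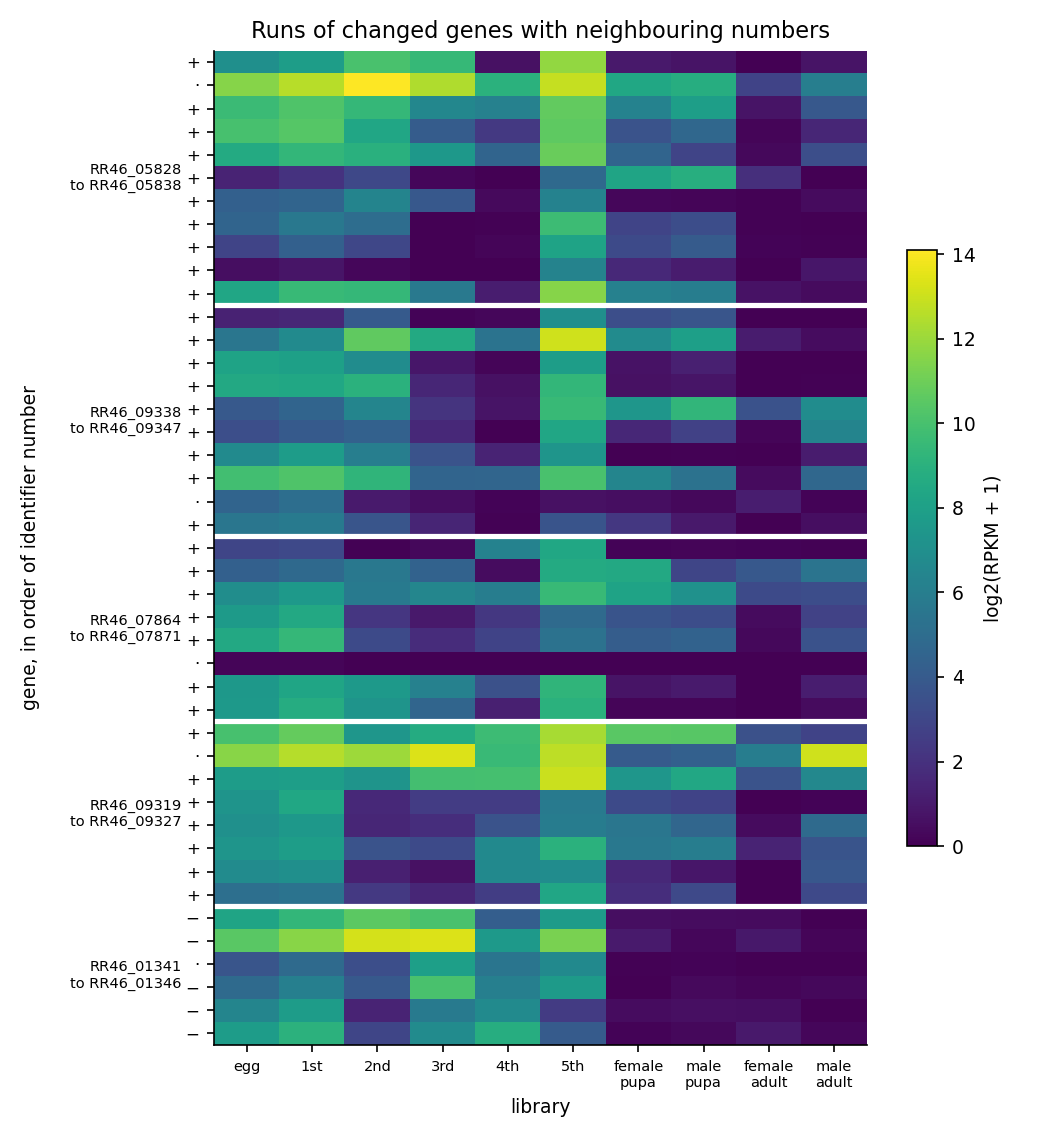
Levels as log2(RPKM + 1), shown by colour, in the 10 libraries (columns) for the genes of the 4 longest runs on the higher side and the longest on the lower side (rows, in order of identifier number). A plus marks genes higher and a minus genes lower in the 5th than in the 3rd instar by 2 or more, and a dot the rest; in the first run the median RPKM was 0.429 in the 4th instar and 1179 in the 5th.

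Set against the remaining higher genes, those in runs had a more marked course. The 73 genes in runs had median RPKM values of 55.4, 19.1, 2.94, 3.17 and 279.9 from the 1st to the 5th instar in order, and 45 of them (61.6%) were lower in the 4th than in the 3rd instar. The 217 genes outside runs had 14.3, 4.69, 2.03, 10.9 and 23.0, and 49 (22.6%) were lower in the 4th than in the 3rd. Both adults were below an RPKM of 1 for 38 (52.1%) of the genes in runs and for 42 (19.4%) of the rest. The low value in the 4th instar library was thus more frequent among genes in runs, and the difference between the groups of genes was not tested.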

How the data were processed

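RNA was extracted from whole bodies, poly-A RNA was selected, cDNA was primed at random and both ends were sequenced on an Illumina instrument. The authors mapped the reads to their own *P. xuthus* assembly and gene set and deposited RPKM. The submitters' processing notes name TopHat 1.0.12 and 1.4.1. Strand use, counting and reads with several hits are not given in the sources used here. RPKM does not correct for composition: where abundant genes take up more of a library, the others come out lower.

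Groups were taken from the sample titles. Library totals, gene lengths and whole reads were solved from the ratios of the RPKM values (15123 of 15123 genes came out whole within 1e-07 of a read) and served for depth and counting intervals. Lengths and reads are the smallest the values allow. No test was run, because there was 1 library per instar. Intervals are exact Poisson for RPKM, exact conditional binomial (95%) for ratios, and Wilson for shares. Ratios used a floor of 3 reads per library, and their intervals used the reads without a floor. Scripts were tested on simulated data. Python 3.11.15, numpy 2.4.6, pandas 2.3.3 and scipy 1.17.1 were used.

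The RefSeq table of Pxut_1.1 (13139 genes) held 0 of the 15123 identifiers, so no gene names, gene lists or sequences are given. At most 2 identifiers per direction were named for each question: the largest difference, the highest RPKM among changed genes, the largest ratio with 30 reads or more in both libraries and 1000 in the pair, and the 4th instar value nearest the middle or farthest outside, plus the most abundant gene of each library. RR46_07911 is also named where 1 gene decides a sum, and runs by their first and last gene, with members named where they depart from the medians of a run. Genes of the same length with reads within 2% (or 3 reads) in each library, and 100 reads in some library, were taken as near-identical copies. The comparison, its genes and its lists were chosen with earlier results of these data known.

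Alternatives were another pseudocount (0.1), differences of 1 and 3, other minimum levels, 3 scalings, copies kept once, and lists set at a gap of 1. Chosen after seeing the data were a minimum of 50 reads, a ratio of 4 or more, and leaving out the runs.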

Additional observations from a re-analysis of the deposited data

How the results depend on the processing

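Of 48 values under alternatives, for 14 results, 31 stayed within the limits set (1.5-fold for counts, the interval for medians and shares, 0.05 for the rank correlation) and 17 moved. With a pseudocount of 0.1, 621 genes were higher and 428 lower. A difference of 1 gave 1427 and 1571, so that the larger side changed, and a difference of 3 gave 118 and 30. A ratio of 4 or more over genes with 1000 reads in the pair gave 139 and 94, and leaving out the runs 217 and 184 (both chosen after seeing the data). Lower or higher thresholds admit more or fewer genes by construction, and other causes were not tested. Both counts stayed within 1.5-fold at each scaling, between 319 and 325 higher and between 154 and 161 lower. The median difference was 0.00 with no filter on low values, -0.12 at an RPKM of 5 or more, 0.034 with upper quartiles equal and 0.016 with sums of RPKM equal, so its sign depended on the scaling. Spearman's rank correlation was 0.91 with no filter and 0.75 at an RPKM of 5 or more. With 100 genes in place of 10, the share of summed RPKM was 75.5% in the 3rd and 74.5% in the 5th instar. Genes of the egg and 1st instar had a median difference of 0.24 with lists set at a gap of 1. Depth limits low genes (an RPKM of 0.106 and 0.128 is 3 reads at 1 kb), and the lack of a second animal limits every difference. No paired analysis was possible because each instar had 1 library.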
